A study of Macaca mulatta with 12 samples.

Results

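The genes that carry synaptic vesicles to the membrane and release their content were followed in the dorsal raphe nucleus of rhesus macaques under ovarian steroids. Members were taken by name: every probe set of the array with a single gene symbol that was SYN1 to SYN3 or SYP, or that began with SNAP, VAMP, RAB3, STXBP, SV2, SYNGR, CPLX or NSF, or with SYT or STX and a digit. This gave 78 of the 12625 probe sets and 58 of 8226 genes with a probe set of their own, each gene represented by its brightest probe set. Of the 58 genes, 48 were bright enough to be tested, among 5499 tested genes in all.

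Tissue came from 12 female monkeys, with 1 Affymetrix human U95A array for each animal. Capsules under the skin held the crystalline steroid for 1 month and gave 4 groups of 3 animals, labelled placebo, estrogen, progesterone, and estrogen and progesterone (called both hormones here). The placebo sources are coded OVX, the usual abbreviation for ovariectomized, and neither the ages of the animals nor the doses are given. The progesterone titles carry EP codes but spell out progesterone alone, and their sources are coded P1 to P3, which were used.

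Neurons release transmitter when a vesicle fuses with the plasma membrane. Fusion is driven by SNARE proteins that zip together from the vesicle side (the synaptobrevins, encoded by VAMP genes) and the membrane side (syntaxins and SNAP25), while synaptotagmins sense calcium, RAB3 proteins bring vesicles to the release site, synapsins hold vesicles in reserve, and the ATPase NSF takes used SNARE complexes apart. In the dorsal raphe this machinery serves serotonin neurons as well as the GABA, glutamate and peptide neurons beside them, and much of the RNA stays in cell bodies while the proteins travel to distant terminals.

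The rule reached beyond this machinery. It took 12 genes with another role by the first letters of their names. These were SNAPC1 to SNAPC5, subunits of the complex that activates small nuclear RNA genes, and NSFL1C, a cofactor of the p97 ATPase. The others were RAB30, RAB31, RAB32, RAB33A, RAB35 and RAB36, RAB proteins like RAB3A but of other subfamilies of intracellular traffic. A further 17 genes encode SNAREs that work at the plasma membrane, Golgi or endosomes of most cells. The remaining 29 genes belong to families best known at the synapse and are called genes of synaptic role here, although some, such as STXBP2, STXBP3, SYNGR2 and SYT17, also work in other cells or compartments. Of these 29, 24 were tested: 4 neuronal SNAREs, 5 synaptotagmins, 7 vesicle membrane proteins, 2 synapsins and 6 regulators. CPLX1, a complexin, was not named by a single-symbol probe set and is not analysed here.

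Values are probe set intensities on a linear scale as deposited, and human probes were read with macaque RNA, so levels are not compared between probe sets. Changes were fitted with limma on quantile-normalized log2(intensity + 8.27), over all 12 arrays, and are given in log2 units with their standard error. On this scale the change of a dim probe set is understated. The number of arrays, 3 to a group, limits the precision.

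Of the 12 arrays, estrogen 1 and both hormones 1 stood apart in their control probe sets. The middle part of the 28S ribosomal RNA control read 841 and 1354 on them and between 64.2 and 179 on the other 10, and their GAPDH signal leaned to the 3' end, with 3'/5' ratios of 2.46 and 2.05 where no other array exceeded 1.46. The defining serotonin neuron genes SLC6A4 and FEV were measured, with placebo means of 434.5 ± 39.9 and 150.5 ± 34.5 (SD, n = 3), and no single-symbol probe set was named TPH2. In bulk tissue, fewer cells of a type and less RNA per cell cannot be told apart.

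No member passed the adjusted threshold of 0.05 in any comparison. With estrogen the members' median change was 0.014, with 25 of 48 above 0, where all tested genes had a median of −0.0022. With progesterone the median was 0.035, with 26 above 0 (all genes −0.0045), and with both hormones −0.027, with 20 above 0 (all genes −0.0066). The share of all tested genes above 0 was 49.6%, 49.4% and 48.7%. The share of all genes called was 0%, 0.0364% and 0%. The spread between animals of the same group was also like that of other genes, with a median within-group SD of 0.295 for members and 0.289 for all tested genes.

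The fits were precise enough to place limits on most members. The 95% interval of a change had a median half-width of 0.519, and it lay inside a 2-fold change in either direction for 37 of 48 members with estrogen, 38 with progesterone and 40 when the hormones were combined. RAB3B, SNAPC2, SNAPC4, STX5, SYNGR4 and SYP were among those whose interval reached further in all 3 comparisons.

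The SNAREs that drive fusion at nerve terminals came first. SNAP25, the membrane SNARE cut by several botulinum toxins, read 4114, 3981 and 3618 on the placebo arrays, 2886, 5425 and 4083 with estrogen, 4599, 4124 and 3928 with progesterone, and 2943, 4663 and 3287 with both hormones. The 2 lowest of these 12 readings were those of estrogen 1 and both hormones 1, and the groups overlapped. Its changes were 0.11 ± 0.26 with estrogen, 0.04 ± 0.26 with progesterone and −0.08 ± 0.26 with both (SE).

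STX1A, the neuronal syntaxin that pairs with SNAP25, varied little. It read 547, 628 and 558 with placebo, 588, 521 and 662 with estrogen, 619, 585 and 565 with progesterone, and 488, 633 and 629 with both hormones. Its changes lay between −0.01 and 0.04 (SE 0.16), with a 95% interval from −0.316 to 0.39 for progesterone.

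The vesicle SNAREs VAMP1 and VAMP2 read in opposite directions with progesterone. VAMP1, the synaptobrevin prominent in brainstem and spinal cord, read 1041, 1226 and 893 with placebo, 1227, 1040 and 1337 with estrogen, 1456, 1523 and 1451 with progesterone, and 1219, 912 and 835 with both hormones. All 3 progesterone readings lay above every reading of the other groups. The change with progesterone was 0.48 ± 0.19 (SE), which did not pass (limma unadjusted p = 0.0309, adjusted p = 0.547). A dimmer VAMP1 probe set gave −0.04 ± 0.35 for the same comparison and 0.31 ± 0.35 with both hormones, where the brighter gave −0.09 ± 0.19, so the probe sets of this gene differed in sign.

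VAMP2, the main synaptobrevin of forebrain terminals, read 4391, 4308 and 4031 with placebo, 3642, 3974 and 4260 with estrogen, 4240, 2845 and 2980 with progesterone, and 3556, 3465 and 4670 with both hormones. Progesterone 2 and 3 were the lowest of the 12, while progesterone 1 lay inside the placebo range. The change with progesterone was −0.40 ± 0.21 (SE, limma unadjusted p = 0.0766, adjusted p = 0.665). Whether the VAMP1 and VAMP2 changes differ from each other was not tested.

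**Figure D1:**
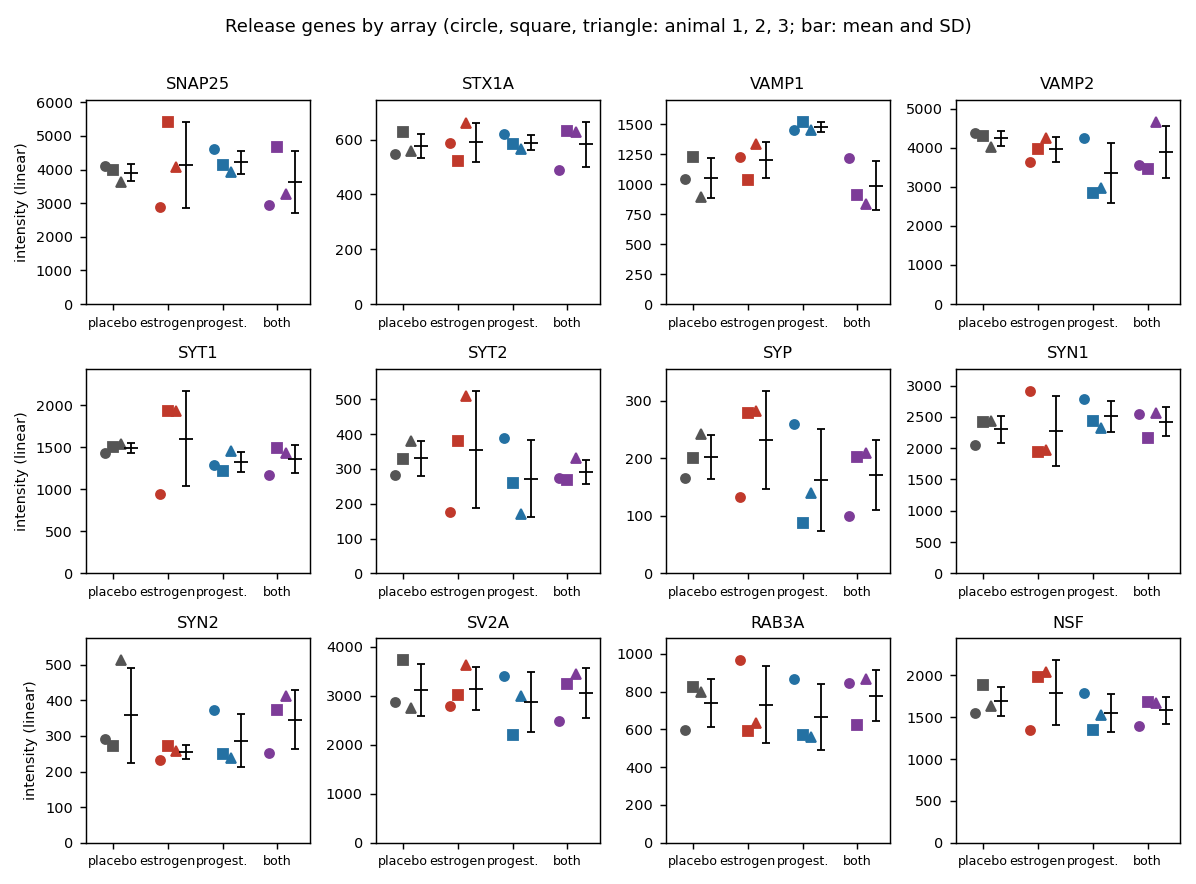
Intensity (linear scale, from 0) of 12 release genes on each array, by group; symbols mark animals 1 to 3, and the black bar is the group mean with its SD (n = 3). VAMP1 sits at 1451 to 1523 on the progesterone arrays, above the other 9, and SNAP25 and SYT1 are lowest on estrogen 1 and both hormones 1.

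Among the synaptotagmins, the calcium sensors of release, no probe set separated any hormone group from placebo. SYT1, the fast sensor of most forebrain neurons, read 1429, 1504 and 1537 with placebo, 946, 1927 and 1928 with estrogen, 1292, 1220 and 1459 with progesterone, and 1171, 1488 and 1427 with both hormones. The wide estrogen group held both the lowest and the highest readings of the 12. Its changes were 0.05, −0.16 and −0.10 (SE 0.24) with estrogen, progesterone and both.

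SYT2, the fast sensor typical of brainstem synapses, gave −0.02, −0.31 and −0.17 (SE 0.36) in that order. SYT5 gave −0.08, −0.11 and −0.04 (SE 0.16) and SYT11, a family member that does not bind calcium, −0.09, −0.02 and 0.02 (SE 0.16). These were among the steadiest members, with a within-group SD of 0.131 for SYT5 and 0.141 for SYT11. SYT17, an atypical member found outside vesicles, gave 0.16, 0.52 and 0.43 (SE 0.25), with a limma adjusted p of 0.636 for progesterone. It read 125 on placebo 1, against 242 and 280 on placebo 2 and 3.

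Proteins that span the vesicle membrane read lower with progesterone in 6 of 7 tested genes, with a median change of −0.24, and none passed. Among all tested genes 50.6% were below 0. On progesterone 1, SV2A, SYNGR1 and SYP read 3408, 2467 and 260, above their placebo means of 3119, 2259 and 202.5. SYNGR3, SV2B and SYNGR4 read below their placebo means on that array. The same 6 to 1 split was found with the values as deposited and with the arrays shifted to a common median, which use the same arrays and are not separate support. With estrogen the split was 3 above and 4 below 0, and with both hormones 2 and 5 (all tested genes 50.4% and 51.3% below 0). The estrogen split was 4 and 3 with the values as deposited and 2 and 5 at a common median, and that of both hormones 1 and 6, and 0 and 7.

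SYNGR3, a synaptogyrin of vesicles that binds the dopamine transporter, was the lowest by test. It read 2213, 3112 and 2614 with placebo, 2565, 2447 and 2890 with estrogen, 2157, 2071 and 2085 with progesterone, and 2328, 2707 and 2280 with both hormones. The 3 progesterone readings lay below all 9 others. The change was −0.40 ± 0.18 (SE, limma unadjusted p = 0.0489, adjusted p = 0.601).

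SYP, the vesicle marker synaptophysin, read 165, 201 and 242 with placebo, 133, 279 and 283 with estrogen, 260, 87.0 and 140 with progesterone, and 99.95, 202 and 210 with both hormones. Progesterone 2 and both hormones 1 were the lowest, and each group overlapped with placebo. Its changes of 0.11, −0.39 and −0.31 had a standard error of 0.42, and its within-group SD of 0.587 was among the widest of the members.

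SV2A, the vesicle glycoprotein to which levetiracetam binds, read 2874, 3726 and 2755 with placebo, 2789, 3009 and 3638 with estrogen, 3408, 2210 and 3003 with progesterone, and 2487, 3239 and 3454 with both hormones. Its changes were 0.02, −0.20 and −0.01 (SE 0.23). SV2B, its close relative, read 327, 261 and 202 with placebo, 167, 247 and 380 with estrogen, 186, 229 and 195 with progesterone, and 248, 258 and 290 with both hormones. It overlapped placebo in every group, with a change of −0.32 ± 0.28 with progesterone (SE).

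SYNGR1, the abundant neuronal synaptogyrin, gave 0.11, −0.24 and −0.02 (SE 0.20), and SYNGR4 −0.36, −0.14 and −0.10 (SE 0.46). SYNGR2, the relative found in most cells, was the exception among the 7. It read 1760, 1581 and 1665 with placebo, 1656, 1427 and 1425 with estrogen, 1814, 2395 and 1958 with progesterone, and 1668, 1390 and 1868 with both hormones. All 3 progesterone arrays lay above the placebo range, and the change was 0.26 ± 0.17 (SE, limma adjusted p = 0.739).

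The synapsins, which tether vesicles to the cytoskeleton, did not separate by hormone except in the case of SYN2 with estrogen. SYN1 read 2056, 2414 and 2431 with placebo, 2912, 1934 and 1970 with estrogen, 2789, 2427 and 2317 with progesterone, and 2541, 2161 and 2569 with both hormones. Its highest reading was that of estrogen 1, unlike SNAP25 and SYT1. SYN1 changes were −0.04, 0.07 and 0.10 (SE 0.21).

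SYN2 read 290, 272 and 512 with placebo, 232, 271 and 259 with estrogen, 373, 249 and 238 with progesterone, and 253, 373 and 411 with both hormones. The estrogen arrays lay just below the placebo range, whose top was set by placebo 3. The change with estrogen was −0.44 ± 0.27 (SE, limma unadjusted p = 0.137).

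Regulators of docking and recycling gave a mixed picture. RAB3A, the vesicle RAB protein that binds RIM at the active zone, read 595, 826 and 797 with placebo, 966, 593 and 636 with estrogen, 866, 571 and 559 with progesterone, and 846, 624 and 865 with both hormones. Its changes were −0.02, −0.15 and 0.08 (SE 0.26), and those of RAB3B −0.15, −0.33 and −0.19 (SE 0.40).

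RAB3GAP1, a subunit of the enzyme that switches RAB3 off, had the clearest separation with estrogen among genes of synaptic role. It read 208, 350 and 374 with placebo, 485, 414 and 414 with estrogen, 255, 434 and 398 with progesterone, and 430, 425 and 515 with both hormones. All 6 arrays with estrogen, alone or combined, lay above the placebo range, and the low placebo 1 widened that range downward. The change was 0.53 ± 0.24 with estrogen and 0.58 ± 0.24 with both hormones (SE, limma unadjusted p = 0.0499 and 0.0336, adjusted p = 0.9999 and 0.9994). Without placebo 1 these were 0.30 and 0.35. A dimmer RAB3GAP1 probe set gave 0.12 and −0.07 (SE 0.35).

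NSF, the ATPase that recycles SNAREs, read 1548, 1883 and 1636 with placebo, 1346, 1985 and 2047 with estrogen, 1788, 1346 and 1523 with progesterone, and 1395, 1684 and 1672 with both hormones. Its changes were 0.10, −0.13 and −0.04 (SE 0.19). SNAP91, the clathrin adaptor AP180 that retrieves vesicles after release, read 418, 299 and 397 with placebo, 278, 548 and 473 with estrogen, 301, 275 and 289 with progesterone, and 319, 372 and 325 with both hormones. It overlapped placebo in each group, and its change with progesterone was −0.31 ± 0.24 (SE). STXBP3, a syntaxin-binding protein of most cells, read 243, 122 and 157 with placebo, 161, 108 and 93.8 with estrogen, 181, 222 and 186 with progesterone, and 187, 184 and 132 with both hormones. It was low on estrogen 2 and 3 but overlapped placebo throughout, with changes of −0.48, 0.22 and −0.02 (SE 0.26).

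**Figure D2:**
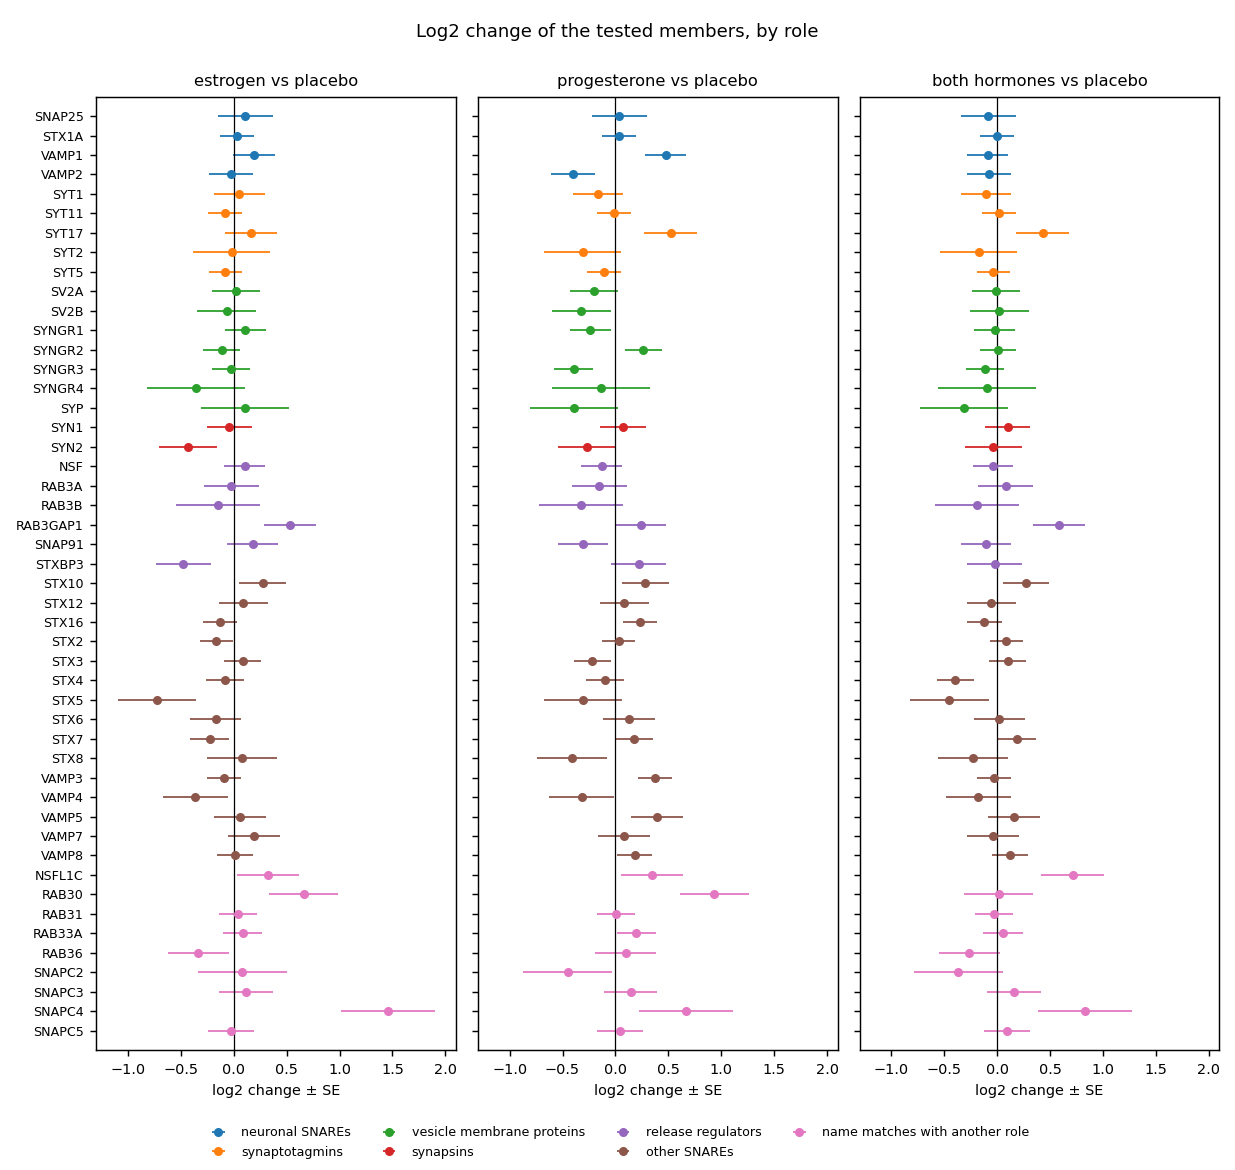
Log2 change against placebo (x axis, with bars of 1 SE) of the 48 tested members (y axis), coloured by role, for estrogen, progesterone and both hormones. Most points lie within 0.5 of 0. RAB30 at 0.93 with progesterone and SNAPC4 at 1.46 with estrogen, both taken by name from outside the release machinery, lie furthest out.

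The 24 genes of synaptic role as a group had a median change of −0.021 with estrogen, of −0.146 with progesterone, and of −0.036 when the hormones were combined, with 13, 16 and 17 of 24 below 0. Among all tested genes 50.4%, 50.6% and 51.3% were below 0. The count of 16 with progesterone lay between 15 and 17 when any 1 array was left out. The count of 17 with both hormones became 11 without placebo 2, 11 without both hormones 1 and 11 without the 2 arrays of high ribosomal signal, and 20 with arrays shifted to a common median. The count of 13 with estrogen ranged from 8 without placebo 2 to 17 without placebo 1. Without STXBP3, SYNGR2 and SYT17, which also work outside synapses, 11, 16 and 16 of 21 were below 0. This alternative was not planned beforehand. With progesterone all 3 genes left out were above 0 (0.22, 0.26 and 0.52). The count of 16 could therefore not change, and its share could only rise.

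The average over these genes differed between animals of the same group. A score, the mean over the 24 genes of each array's log2 deviation from the gene's own average, was −0.072, 0.115 and 0.038 on the placebo arrays and −0.133, 0.059 and 0.118 on the estrogen arrays. It was 0.073, −0.146 and −0.098 with progesterone, and −0.057, 0.050 and 0.051 with both hormones. Each group held arrays on both sides of 0, and every group overlapped placebo.

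The 5 arrays with a score below 0, which were placebo 1, estrogen 1, both hormones 1 and progesterone 2 and 3, were the same 5 on which the oligodendrocyte markers scored above 0. That marker score was 0.151, 0.301, 0.365, 0.323 and 0.137 on them, and it was below 0 on the other 7, down to −0.543 on estrogen 2. The match of signs was counted for the oligodendrocyte markers only, and not for the other cell type lists. Of 8 listed markers 6 were measured (MBP, MOG, MAG, CNP, MOBP and MAL), and their summed intensity ranged from 17170 to 20310 with placebo, 13320 to 19140 with estrogen, 18560 to 25660 with progesterone and 16280 to 21260 with both hormones. No marker read 0. The 11 neuron markers outside the release genes, among them neurofilaments, summed to between 27810 and 32530 with placebo, 28270 and 35670 with estrogen, 29750 and 34580 with progesterone, and 29370 and 31580 with both hormones, and their score was below 0 on all 3 placebo arrays and above 0 on all 3 arrays of both hormones. The 7 measured serotonin neuron genes summed to between 1194 and 1432 with placebo, 1289 and 1420 with estrogen, 904 and 1068 with progesterone and 983 and 1423 with both hormones. Their median changes were 0.010 with estrogen, −0.45 with progesterone and −0.18 with both. With progesterone 6 of 7 were below 0 (all tested genes 50.6%). An unadjusted limma p under 0.05 was found for 2 of the 7 (28.6%, all genes 7.62%). Over the same 3 comparisons the medians were 0.088, 0.084 and −0.065 for 9 astrocyte markers, −0.16, 0.19 and −0.21 for 6 microglia markers, 0.16, 0.17 and 0.21 for 5 endothelial markers, and 0.35, 0.0054 and 0.21 for 6 cerebellar genes. Of the astrocyte markers SOX9, GLUL and GFAP had −0.80, −0.45 and −0.42 with progesterone, each at an unadjusted p under 0.05 and none past the limma adjusted threshold. That was 33.3% of the list, against 7.62% of all tested genes. The list did not go one way, with 5 of 9 above 0, up to 1.16, and 4 below. Astrocyte markers summed to 4335 on placebo 1, against 7292 and 7742 on placebo 2 and 3. The part of these cell types in the members' values was not tested.

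On the 2 arrays of high ribosomal signal the genes of synaptic role were counted where they were lowest of their group. Estrogen 1 was the lowest estrogen array for 14 of 24, and both hormones 1 the lowest combined array for 12 of 24, while each was lowest of its group for 38.2% of all tested genes. SNAP25 and SYT1 had their lowest 2 readings of the 12 on these arrays. The part of RNA quality in these values was not tested.

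**Figure D3:**
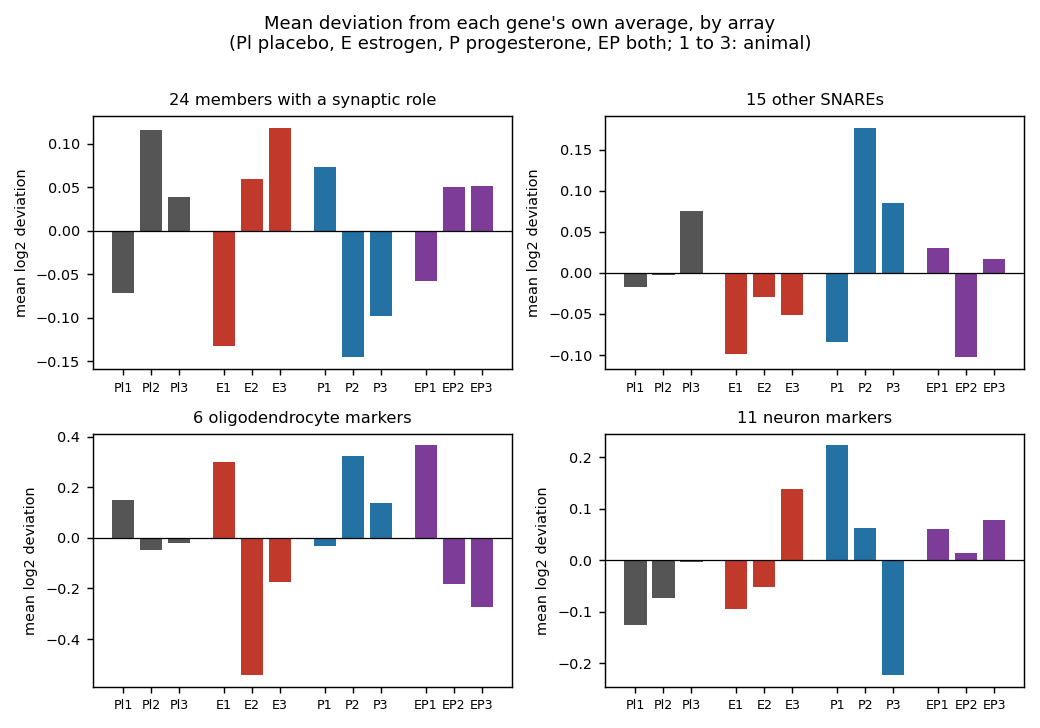
Mean log2 deviation from each gene's own average (y axis) on each array (x axis), for the 24 members of synaptic role, the 15 other SNAREs, 6 oligodendrocyte markers and 11 neuron markers. The synaptic score is below 0 on placebo 1, estrogen 1, progesterone 2 and 3 and both hormones 1, the arrays on which the oligodendrocyte score is above 0.

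SNAREs of general membrane traffic had medians of −0.082, 0.084 and −0.031 over 15 tested genes with estrogen, progesterone and both. VAMP3, cellubrevin, which serves recycling endosomes in most cells and is found in glia, read 218, 240 and 219 with placebo, 241, 195 and 199.8 with estrogen, 256, 319 and 294 with progesterone, and 224, 200 and 242 with both hormones. As with VAMP1, its 3 progesterone readings lay above all 9 others. The change was 0.37 ± 0.16 (SE, limma unadjusted p = 0.0376, adjusted p = 0.564), and a dimmer probe set gave 0.15 ± 0.19.

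Genes with all 3 progesterone readings above or below those of the other 9 animals were counted after these values were seen. There were 3 of 48 members (6.25%), namely VAMP1, VAMP3 and SYNGR3, against 3.51% of all tested genes. No member did so in the placebo, estrogen or combined group, where the shares of all tested genes were 0.546%, 0.564% and 0.509%.

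STX4, the plasma membrane syntaxin of non-neuronal cells and dendrites, read 145, 174 and 148 with placebo, 149, 141 and 155 with estrogen, 143, 174 and 122 with progesterone, and 135, 101 and 121 with both hormones. The combined group lay below both placebo and estrogen, with a change against placebo of −0.40 ± 0.18 (SE, limma unadjusted p = 0.0445, adjusted p = 0.9994). STX7, a late endosome syntaxin, read 275, 213 and 191 with placebo, 193, 202 and 179 with estrogen, 264, 225 and 267 with progesterone, and 227, 255 and 299 with both hormones. It was higher on every combined array than on every estrogen array, by 0.41 ± 0.18 (SE, limma unadjusted p = 0.044).

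STX5, the Golgi syntaxin, read 118, 109 and 135 with placebo, 34.5, 118 and 88.6 with estrogen, 76.1, 118 and 96.8 with progesterone, and 76.3, 106 and 85.6 with both hormones. The combined arrays lay just below the placebo range, and estrogen 1 was the lowest of the 12. Its changes were −0.73, −0.31 and −0.45 (SE 0.37), and that with estrogen was −0.19 without estrogen 1. STX8, another endosomal syntaxin, lay below placebo on all 3 progesterone arrays with a change of −0.41 ± 0.33 (SE). The other 10 tested genes, which were STX2, STX3, STX6, STX10, STX12, STX16, VAMP4, VAMP5, VAMP7 and VAMP8, gave changes between −0.36 and 0.40 in the 3 comparisons. STX16, a syntaxin of the trans-Golgi, read 175, 192 and 213 with placebo, 184, 181 and 163 with estrogen, 203, 265 and 209 with progesterone, and 168, 172 and 196 with both hormones. All progesterone readings lay above those with both hormones and overlapped placebo. The brighter VAMP4 probe set gave −0.32 with progesterone and the dimmer −0.47, while 3 tested STX16 probe sets gave 0.23, 0.42 and −0.36.

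The largest values belonged to genes outside the release machinery. SNAPC4 read 36.9, 37.2 and 33.3 with placebo, 147, 128 and 80.4 with estrogen, 28.8, 71.4 and 113 with progesterone, and 99.0, 115 and 31.9 with both hormones. Each estrogen array lay above the placebo range, while progesterone 1 and both hormones 3 read as low as placebo. The change with estrogen, the highest of any tested gene, was 1.46 ± 0.44 (SE, limma unadjusted p = 0.0065, adjusted p = 0.9999).

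RAB30, a Golgi RAB protein, read 57.3, 160 and 105 with placebo, 244, 124 and 145 with estrogen, 221, 195 and 182 with progesterone, and 147, 81.3 and 92.8 with both hormones. The progesterone arrays lay above placebo and above the combined group. The change was 0.93 ± 0.33 with progesterone (SE, limma unadjusted p = 0.0146, adjusted p = 0.504), and a dimmer probe set, also with its progesterone arrays above placebo, gave 0.10 ± 0.20. NSFL1C read 180, 113 and 230 with placebo, 269, 132 and 268 with estrogen, 185, 220 and 238 with progesterone, and 262, 282 and 304 with both hormones. The combined arrays lay above the placebo range, a change of 0.71 ± 0.29 (SE, limma unadjusted p = 0.0327, adjusted p = 0.9994). A second NSFL1C probe set under the filter went the other way, with −0.71 with both hormones and −1.08 with progesterone in a fit without the filter, and with all progesterone arrays below all placebo arrays. The other 6 tested genes of this kind, SNAPC2, SNAPC3, SNAPC5, RAB31, RAB33A and RAB36, gave changes between −0.45 and 0.20.

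**Figure D4:**
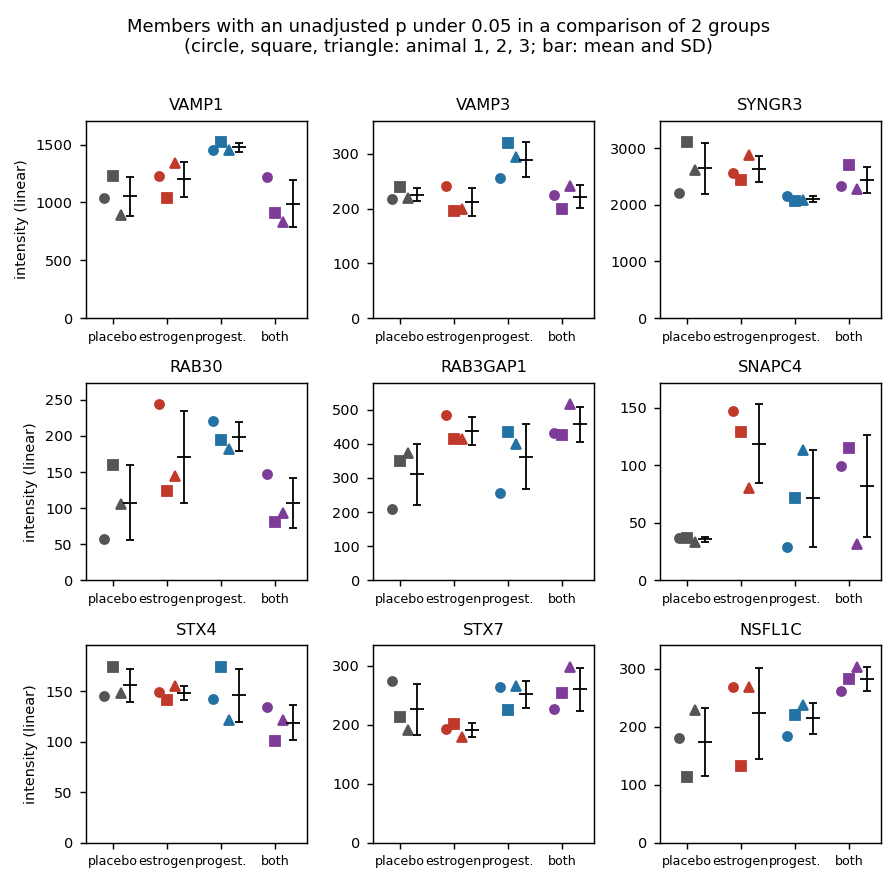
Intensity (linear scale, from 0) by group of the 9 members with an unadjusted limma p under 0.05 in a comparison of 2 groups; symbols mark animals 1 to 3, and the black bar is the group mean with its SD (n = 3). The progesterone arrays stand above the other 9 for VAMP1 and VAMP3 and below them for SYNGR3, and none of these genes passed the adjusted threshold.

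The members' counts were set against those of all genes. At an unadjusted limma p under 0.05 there were 2 members with estrogen (4.17%, all tested genes 2.80%), 4 with progesterone (8.33%, all genes 7.62%) and 3 with both hormones (6.25%, all genes 3.26%). Arrays did not overlap with placebo for 3 members with estrogen (6.25%, all genes 6.04%), 6 with progesterone (12.5%, all genes 16.6%) and 4 with both hormones (8.33%, all genes 9.02%). The lowest limma adjusted p over members was 0.504 with progesterone, and no member was under 0.999 with estrogen or with both hormones.

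Adding progesterone to estrogen gave a members' median of 0.013, with 26 of 48 above 0 (all genes 48.7%), and STX7 was the 1 member at an unadjusted p under 0.05 (2.08%, all genes 2.71%). STX7 was higher and STX4 lower on all 3 combined arrays than on all 3 estrogen arrays, 2 of 48 (4.17%, all genes 6.20%). In these 2 groups arrays of the same number were taken as pairs, from the data and not from the labels. A limma fit of their 6 arrays with that uncertain pairing as a block had 0 members called. Its smallest unadjusted p among members belonged to RAB30 at −0.64, SYP at −0.42, STXBP3 at 0.45 and SNAPC4 at −0.63 (limma adjusted p = 0.918 for each). The pairing was picked from these same arrays, and the share of all genes was not counted in this fit. These values are therefore not read as a result about the members.

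Setting both hormones against progesterone, which shares the progesterone arrays with the comparisons above, gave a median of 0.035 with 28 of 48 above 0 (all genes 50.4%). VAMP1 differed by −0.56 ± 0.19, RAB30 by −0.92 ± 0.33 and VAMP3 by −0.40 ± 0.16 (SE, limma unadjusted p = 0.0134, 0.0159 and 0.0265, adjusted p = 0.484, 0.50 and 0.548). These were the 3 members under 0.05 (6.25%, all genes 7.44%). Arrays did not overlap for 9 of 48 (18.8%, all genes 16.0%): NSFL1C, SNAP91, STX3, SV2B and SYNGR3 were higher with both hormones, and VAMP1, VAMP3, RAB30 and STX16 lower. The share of all genes called was 0.0182%, and it was 0% for both hormones against estrogen.

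The interaction, which asks whether the hormones add up on the log2 scale, was under an unadjusted p of 0.05 for RAB30 at −1.58 ± 0.46 and VAMP1 at −0.76 ± 0.28 (SE, limma unadjusted p = 0.00523 and 0.0178, adjusted p = 0.914 and 0.923), 2 of 48 members (4.17%, all genes 4.47%, with 0% of all genes called). The interaction was above 0 for 26 of 48 members (all genes 50.7%, against 49.3% below 0), with a median of 0.014. SNAPC4 had −1.29 ± 0.62 and SYN2 0.67 ± 0.39 (SE). The dimmer RAB30 and VAMP1 probe sets gave −0.70 and 0.60. In limma's overall F test across the groups, RAB30 and SNAPC4 were under 0.05 (unadjusted p = 0.0322 and 0.0443, adjusted p = 0.816 and 0.842). That was again 4.17% of members, against 5.06% of all genes, of which 0.0546% were called.

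Where a gene had several tested probe sets they often differed in sign. Of 9 such members, 4 gave opposite signs with estrogen, 4 with progesterone and 5 when they were combined.

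The 10 members too dim to be tested were CPLX2, RAB32, RAB35, SNAP23, SNAPC1, STX11, STXBP2, STXBP5L, SV2C and SYN3. CPLX2, a complexin that clamps SNARE complexes, read between 5.32 and 101 over the 12 arrays, SYN3 between 14.1 and 57.3, and SV2C between 4.03 and 47.0. SNAP23, the relative of SNAP25 in other cells, read between 28.4 and 69.5 and STX11, a syntaxin of immune cells, between 27.3 and 43.9. STXBP2, its partner, read between 16.1 and 74.5, STXBP5L, a tomosyn, between 19.4 and 95.2, SNAPC1 between 16.3 and 74.8, RAB32 between 4.25 and 53.3, and RAB35 between 27.7 and 74.4. The filter lay at 5.85 on the log2 scale, between STXBP5L at 5.83 and RAB36 at 6.12.

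Other genes of the pathway, listed by role, gave no call by limma in the comparisons with placebo. Of the active zone and priming genes 21 of 30 were tested, with medians of 0.16, 0.04 and 0.15 with estrogen, progesterone and both. An unadjusted limma p under 0.05 was found for 2, 1 and 1 of 21 (9.52%, 4.76% and 4.76%). The shares of all tested genes were 2.80%, 7.62% and 3.26%. With progesterone NAPG, a SNAP adaptor that works with NSF, gave −0.71 ± 0.22 (SE, limma adjusted p = 0.403), CASK, a presynaptic scaffold kinase, −0.68, PPFIA1, a liprin scaffold, 0.39, and APBA1, a presynaptic adaptor protein, 0.81. With estrogen and with both hormones the values were 0.31 and 0.40 for NAPG, −0.18 and 0.21 for CASK, −0.11 and 0.15 for PPFIA1, and 0.49 and 0.99 for APBA1.

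Genes of vesicle endocytosis (18 of 26 tested) had medians of −0.0027, 0.011 and 0.015, with 0, 0 and 1 under 0.05. These were 0%, 0% and 5.56%, against 2.80%, 7.62% and 3.26% of all tested genes. With progesterone SH3GL2, endophilin, gave −0.40, the fission GTPase DNM1 −0.36, and the adaptor subunits AP2S1 and AP2B1 0.37 and 0.73. AP2B1 gave 0.81 with estrogen and 1.23 with both hormones, SH3GL2 −0.13 and −0.31, DNM1 −0.01 and 0.10, and AP2S1 −0.06 and 0.27.

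Vesicle transporters and proton pump genes (17 of 22 tested) had medians of −0.0058, −0.066 and −0.0040, with none under 0.05 in any of the 3. The shares of all tested genes under 0.05 were 2.80%, 7.62% and 3.26%. SLC18A2, which loads vesicles with serotonin and is also 1 of the 7 serotonin neuron genes above, gave −0.05, −0.45 and −0.18. The pump subunits ATP6V1C1, ATP6V1E1 and ATP6V1B2 gave −0.46, 0.34 and 0.36 with progesterone, −0.19, 0.01 and 0.09 with estrogen, and −0.45, 0.28 and −0.03 with both hormones.

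Other genes of the presynaptic membrane (14 of 21 tested) had medians of 0.0064, −0.17 and 0.018, with 1, 2 and 1 under 0.05. These were 7.14%, 14.3% and 7.14%, against 2.80%, 7.62% and 3.26% of all tested genes. NRXN2, a neurexin that joins the terminal to its target, had a placebo mean of 1079 ± 30.9 and a progesterone mean of 633 ± 65.9 (SD, n = 3). The means of the other groups were 1002 ± 210 for estrogen and 925 ± 118 for both hormones. It was lower on all 3 progesterone arrays than on all placebo arrays, by a change of −0.77 ± 0.19 that did not pass (SE, limma unadjusted p = 0.00171, adjusted p = 0.313). Arrays did not overlap in this comparison for 3 of the 14 (21.4%), against 16.6% of all tested genes. RAB5C, an early endosome RAB, gave 0.83 with progesterone, against 0.19 and 0.24 with estrogen and both. SCAMP3, a carrier membrane protein, gave −0.56, −0.06 and −0.06 in the same order, and NRXN3 0.35, 0.63 and 0.46.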

How the data were processed

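Per the labels' protocols, RNA came from a Trizol extraction followed by Qiagen cleanup. The authors deposited linear intensity values, 1 for each probe set of an array, and from the values each array had been scaled to a trimmed mean of 200.1 (2% from each end). The software that summarised the probes is not given in the sources used here. Gene symbols came from the platform annotation: 10943 with 1 symbol, 545 with several and 1070 with none, beside 67 controls. All 58 member symbols were in the RefSeq macaque table.

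The offset of 8.27 is the pooled 10th percentile. Array medians spanned 0.20 on the log2 scale, over the limit of 0.15, so quantile normalization was applied. A filter then removed the dimmest 40% of probe sets (5023, leaving 7535). limma 3.58.1 in R 4.3.3 was fitted to all 12 arrays with Benjamini-Hochberg adjustment over the 7535, 2-sided. The fit was also run on simulated data, whose outcome is not given here. How often a true change would pass with 3 arrays per group is therefore not stated. Overlap was judged on deposited values. Deviations from the group means correlated at 0.407, 0.296 and 0.133 for the same-numbered pairs of estrogen and both hormones. All were above 0.1, so numbers were taken to pair these 2 groups, from the data and not from the labels. No other pair of groups met this. The first of these pairs is the 2 arrays of high ribosomal signal. Deviations within a group are not independent, so that pair also bears on the others. Estrogen 3 correlated at 0.207 with both hormones 2, above its same-numbered 0.133, and estrogen 2 at 0.119 with both hormones 3. The pairing is therefore uncertain. Members and lists were chosen with earlier results of these data known, and roles were assigned by name. Every tested member is named; array values are given for a fixed list of core genes and, per comparison, for members with an unadjusted p under 0.05 or the 4 lowest p; SYNGR2 was added after its values were seen. Of each other pathway list, the 2 highest and 2 lowest changes with progesterone are named. Alternatives covered scaling, offset, filter, limma settings, the replicate block, probe set choice and leaving out arrays.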

Additional observations from a re-analysis of the deposited data

Results flagged for a closer look

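Among the 20 member probe sets under the filter, those for which all 3 arrays of a hormone group lay above all 3 placebo arrays were a second STX6 probe set (mean intensity 45.0) and SNAPC1 (35.3) with estrogen, and STXBP5L (65.4) and SNAPC1 (52.6) with progesterone. This was 2 of 20 in each of these groups and 0 with both hormones, where 3.92%, 8.19% and 4.67% of all dim single-symbol probe sets did so with estrogen, progesterone and both. Wholly below placebo were STXBP2 with estrogen, RAB35 and a second NSFL1C probe set with progesterone, and SV2C with both hormones, that is 1, 2 and 1 of 20, against 3.17%, 5.37% and 2.65% of all dim single-symbol probe sets. These values were not tested.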

How the results depend on the processing

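The count of members past limma's adjusted threshold was 0 in every comparison under all 25 alternative settings that gave a count; at an unadjusted p under 0.05 the counts ranged from 0 to 7. With the replicate number as a block the count was also 0 in each of the 7 comparisons. The numbers were not taken as pairing animals across all groups, since 5 of 18 same-numbered pairs correlated above 0.1. A replicate block in a fit of the estrogen and both hormones arrays alone, added after the check of the numbers, also called 0 members, with a median change of 0.042. The members' median change stayed within the SD between arrays of their score, 0.046, for 143 of 150 values. It became −0.035 for both hormones against estrogen once the pair of arrays with high ribosomal signal was left out, and −0.016 for both hormones against progesterone with arrays shifted to a common median. Without RAB30 to RAB36, SNAPC1 to SNAPC5 and NSFL1C, an alternative chosen after seeing which names the rule took, it was −0.098 with progesterone and 0.072 for the interaction. Leaving out 1 array at a time gave medians from −0.036 to 0.027 with estrogen, −0.033 to 0.038 with progesterone, −0.051 to 0.024 with both hormones, −0.022 to 0.042 for both against estrogen, 0.0085 to 0.060 for both against progesterone and −0.032 to 0.056 for the interaction.

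Of the values of single genes 577 of 583 kept their sign and their side of the threshold, and the lowest adjusted p among them was 0.129. Leaving out 1 array moved 13 of the 24 changes of named genes by over 1.5 times, as for SYNGR3 with progesterone (−0.56 to −0.24), RAB30 with progesterone (0.61 to 1.24) and with estrogen (0.34 to 0.97), and NSFL1C with both hormones (0.44 to 0.91). The sign turned only for STX16, for both hormones against progesterone, −0.35 in the report: another of its probe sets became the brightest with the larger offset (0.18), with only the groups compared (0.22), and without placebo 1, estrogen 3 or progesterone 2 (−0.43 to 0.19 over all arrays left out in turn), and the mean of its probe sets gave 0.058. A fit of only the groups compared is the same fit for the interaction. Precision is limited by 3 arrays per group and, for dim genes, by the offset.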
